A study of Arabidopsis thaliana with 4 samples.

Results

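The 40 nuclear genes with the most counts in wild-type globular embryos of Arabidopsis thaliana were followed into embryos of the serrate mutant se-1. They were the 40 highest of 27576 rows that name a single nuclear gene, ranked by their mean level in the 2 wild-type libraries, with level given as counts scaled by the library total (CPM). The count tables hold 27880 rows in all. The study measured RNA from embryos of 32 to 64 cells by sequencing, in 2 libraries of se-1 and 2 of wild type, all in the Col background. The se-1 plants carry the mutant allele serrate-1 and the wild-type plants do not, and both were raised alike, with at least 4 days of cold at 4 °C in the dark before growth at 22 °C under 16 h of light a day. SERRATE is a zinc-finger protein with roles in microRNA processing and mRNA splicing, and the se-1 allele keeps part of its function. The labels call the libraries biological replicates, and the number of embryos pooled for each and the time of day of sampling are not stated in the labels. Because the wild-type libraries chose the genes, their levels in wild type are a description and are not tested.

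Cells that divide fast spend much of their mRNA on the machinery that makes protein: ribosomal proteins, elongation and initiation factors, and the nucleolar proteins that modify and assemble ribosomal RNA. Tubulins, actins and histones serve the spindle, the cytoskeleton and the new chromatin. In plant genes of translation and cell division, promoters often carry the telo box and the site II element, short words bound by transcription factors that act in growing tissue.

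Total counts were 18580516 and 20882004 in se-1 and 18894161 and 19362653 in wild type, and the smallest count of any of the 40 genes in a library was 13823, whose counting error is 0.851%. The SE transcript itself stood at 69.8 and 71.0 CPM in se-1, against 97.2 and 97.4 CPM in wild type. All 16 embryo markers reached 1 CPM in both genotypes, with sums of 1939 and 1854 CPM in se-1, compared with 2273 and 2329 CPM in wild type. Of 11 endosperm markers, 8 reached that level in se-1 and 7 in wild type, with sums of 189 and 185 CPM in se-1, against 387 and 364 CPM in wild type. Their member IKU2 was under 1 CPM in both genotypes, with 0 counts in se-1 and 9 in wild type. Of 11 seed coat markers, 10 reached 1 CPM in se-1 and 11 in wild type. Their sums were 524 and 534 CPM in se-1, compared with 475 and 444 CPM in wild type. Whether the smaller sum of endosperm markers in se-1 has a part in the levels below was not tested. In bulk RNA, fewer cells of a type and less RNA in each cell cannot be told apart.

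The promoters of the 40 genes differed by what the genes encode, and 6 are shown to make this visible. They are first those of the 3 most abundant transcripts, the glycine-rich protein gene AT3G24250, the RNA-binding protein gene GRP7 and the glycine-rich protein gene AT1G04660. The other 3 are the first in rank with both a telo box and a site II element among the 250 bases before the start, the elongation factor gene AT5G60390, the ribosomal protein gene AT5G15200 and TCTP. Such genes numbered 6. Each line gives the 250 bases upstream of the annotated start, 5′ to 3′ on the gene's strand, from the RefSeq annotation and genome TAIR10.1, matched by gene identifier. Capitals mark the telo box (AAACCCTA, or TAGGGTTT on the other strand), the site II words (TGGGCC or TGGGCT, or GGCCCA and AGCCCA on the other strand) and TATAAA, which was searched on the gene's strand. The regions are chr3:8786439-8786688 (plus strand), chr2:9266558-9266807 (minus), chr1:1301774-1302023 (minus), chr5:24288346-24288595 (plus), chr5:4936430-4936679 (minus) and chr3:5670843-5671092 (minus).
AT3G24250: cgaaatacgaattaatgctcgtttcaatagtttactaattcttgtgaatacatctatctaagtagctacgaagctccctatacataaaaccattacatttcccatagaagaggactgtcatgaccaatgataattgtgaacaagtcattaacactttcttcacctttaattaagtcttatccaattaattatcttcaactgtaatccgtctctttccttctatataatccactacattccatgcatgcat
GRP7: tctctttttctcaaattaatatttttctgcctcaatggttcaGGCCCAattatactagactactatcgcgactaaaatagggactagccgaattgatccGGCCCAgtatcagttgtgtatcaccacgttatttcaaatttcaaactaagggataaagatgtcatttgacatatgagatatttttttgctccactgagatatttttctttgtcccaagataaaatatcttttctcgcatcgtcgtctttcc
AT1G04660: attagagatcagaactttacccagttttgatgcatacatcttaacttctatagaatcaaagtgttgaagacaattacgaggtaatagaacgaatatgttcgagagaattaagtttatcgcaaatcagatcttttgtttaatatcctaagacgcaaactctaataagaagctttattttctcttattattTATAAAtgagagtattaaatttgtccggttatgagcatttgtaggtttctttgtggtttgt
AT5G60390: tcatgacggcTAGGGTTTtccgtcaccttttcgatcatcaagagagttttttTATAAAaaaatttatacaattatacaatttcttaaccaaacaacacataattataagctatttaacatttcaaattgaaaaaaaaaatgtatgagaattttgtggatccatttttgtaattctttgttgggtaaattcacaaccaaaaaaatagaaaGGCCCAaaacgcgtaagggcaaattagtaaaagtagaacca
AT5G15200: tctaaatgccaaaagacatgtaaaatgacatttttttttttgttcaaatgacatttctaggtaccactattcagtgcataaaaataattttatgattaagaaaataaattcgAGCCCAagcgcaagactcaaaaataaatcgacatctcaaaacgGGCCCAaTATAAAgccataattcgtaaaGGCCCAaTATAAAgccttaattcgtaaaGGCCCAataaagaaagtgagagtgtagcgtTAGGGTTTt
TCTP: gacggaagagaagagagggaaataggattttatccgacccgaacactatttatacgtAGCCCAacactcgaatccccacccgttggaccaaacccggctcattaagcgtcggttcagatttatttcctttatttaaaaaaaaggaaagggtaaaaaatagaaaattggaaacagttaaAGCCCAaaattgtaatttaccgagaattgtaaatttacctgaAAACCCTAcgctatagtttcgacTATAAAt

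AT3G24250 holds none of these words in its upstream bases, and AT1G04660 holds a single TATAAA whose first base lies 61 bases before the start. AT5G15200 holds 4 site II words, at 138, 95, 67 and 39 bases before the start, with a telo box at 9 bases. Counted in windows of 250 bases before to 50 after the start, the telo box stood in 12 of the 40 genes (30%), against 6.22% of 27443 annotated genes. A site II word stood in 25 of the 40 (62.5%) and in 21.7% of all, and both together in 11 of the 40 (27.5%) and in 2.2% of all. TATAAA stood in 19 of the 40 (47.5%) and in 37.2% of all. The words were spread unevenly over the classes of protein. Site II words were in all 12 ribosomal protein genes, in 4 of 5 genes for translation factors and TCTP and in 3 of 4 nucleolar genes. All 3 genes for RNA-binding proteins and helicases and the 1 gene of no known function held them too. They were in 1 of 7 genes for enzymes and carriers and in 1 of 4 for the cytoskeleton and histones. None of the 4 genes for glycine-rich and wall proteins held any. The telo box was in 6 of the 12 ribosomal protein genes, in 3 of 4 nucleolar genes and in 3 of the 5 genes for translation factors and TCTP, and in none of the other 5 classes. These are matches of letters and say nothing of binding.

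The 40 transcripts took a smaller share of the counts in se-1. Their summed share was 7.30% and 7.52% in the se-1 libraries and 10.9% and 11.4% in the wild-type libraries, or 7.41% ± 0.158 in se-1 and 11.1% ± 0.375 in wild type (SD, n = 2 each), a ratio of 0.665. Since the same wild-type libraries chose the genes, part of this difference can come with the choice, here and in each comparison below. The 40 highest genes of se-1 itself, picked by the same rule, took 7.94% and 8.37% of the counts in se-1, against 9.62% and 10.2% in wild type. That list also holds AT3G24250, GRP7 and AT1G04660, which alone were lower by 1.85 percentage points in se-1. The comparison therefore does not show a fall of the other genes in the list. The spread of counts over genes can be read from the rows needed for 50% of them: 1140 and 1123 rows made up 50% of the counts in se-1, and 1098 and 1065 rows in wild type. Of the 3.73 percentage points between the genotypes, 1.85 points (49.7%) came from the 3 highest genes, AT3G24250, GRP7 and AT1G04660. These took 0.813% and 0.815% of the counts in se-1 and 2.45% and 2.89% in wild type. Without them the share of the other 37 genes was 6.48% and 6.70% in se-1 and 8.42% and 8.52% in wild type, a ratio of 0.778.

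**Figure D1:**
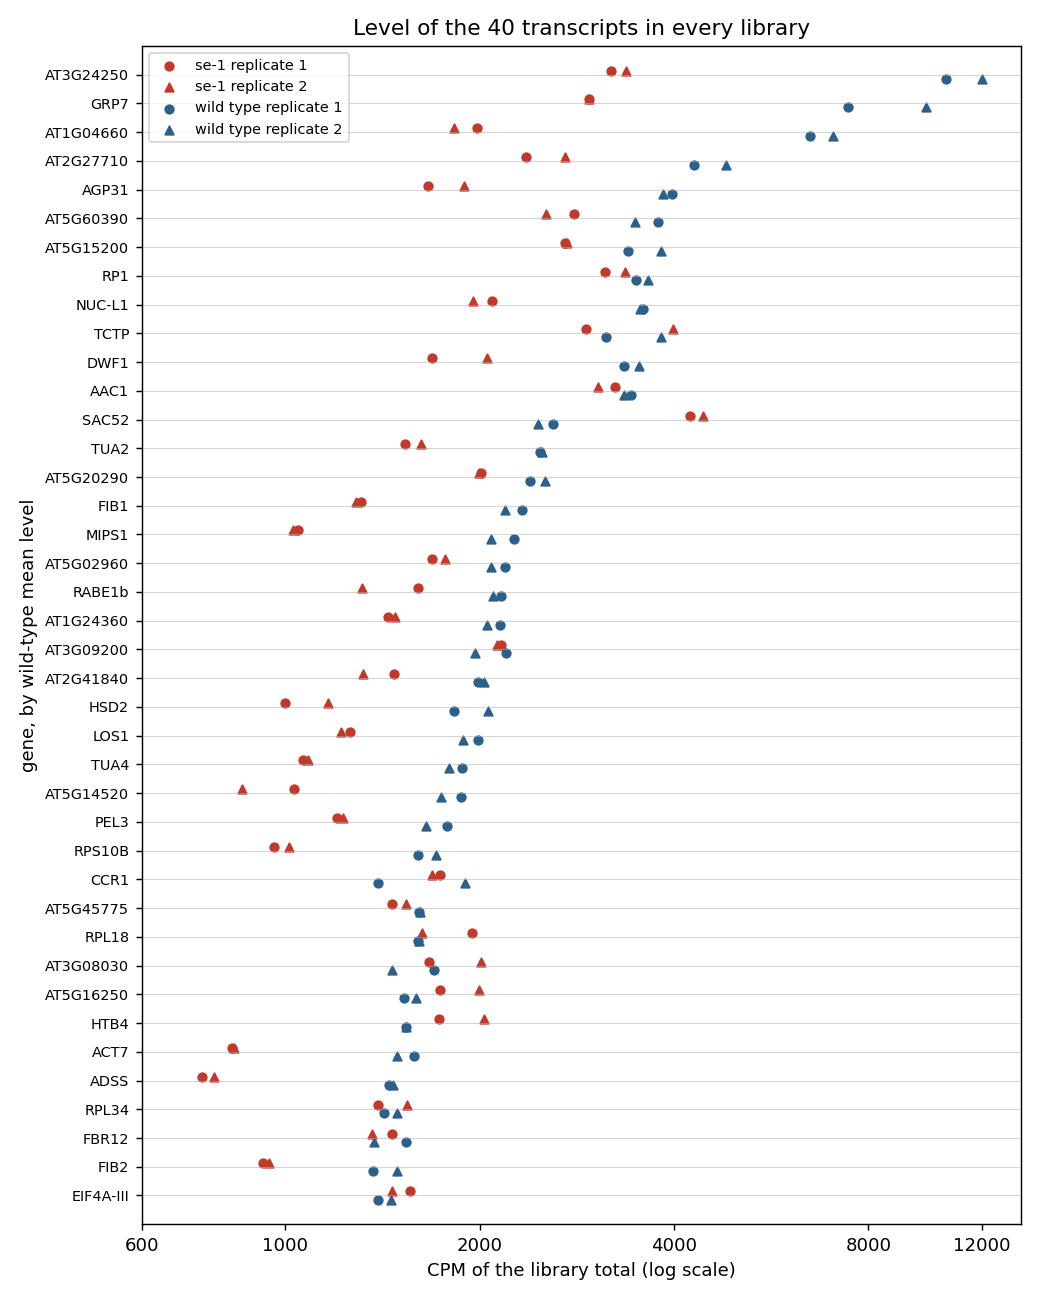
Level of each of the 40 genes in CPM of the library total (log scale), 1 point per library, se-1 in red above wild type in blue, ordered from the highest wild-type mean down. The 3 highest genes stood far to the left in se-1, SAC52 stood to the right, and several genes of the lower ranks overlapped.

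Genotypes were compared gene by gene in a fit over all 18714 genes tested (edgeR quasi-likelihood test, Benjamini-Hochberg adjusted), and a gene is called where the adjusted p was under 0.05. All 40 genes passed the filter on low counts. Of the 40 genes 26 were called lower in se-1, 3 were called higher and 11 were not called. Among all tested genes 36.0% were called lower and 36.2% higher, 72.3% in either direction. The median log2 fold change, se-1 over wild type, was -0.53 over the 40 genes and 0.00 over all genes. The genotypes did not overlap in CPM in 29 of the 40 on the lower side and in 5 on the higher side, against 42.3% and 43.0% of all tested genes, or 85.3% on either side. At least 2-fold lower and called were 5 genes, AT1G04660, AT3G24250, GRP7, AGP31 and MIPS1, where 9.9% of all tested genes were, and none was 2-fold higher and called, where 14.7% were. Chosen on wild-type replicate 1 alone and tested against the other wild-type library, which is then taken to vary as the se-1 pair does, 25 of 40 genes were called lower and 2 called higher (median -0.52). With the 2 wild-type libraries exchanged, 25 were called lower and 4 called higher (median -0.55). This keeps the choosing library out of the test, but not what the wild-type libraries share.

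Transcript length moved with the fold change over all genes, short transcripts being higher in se-1. The 40 transcripts were shorter than most, with a median of 1412 nt (703 to 3790 nt) against 1827.5 nt over 16754 coding genes at 1 CPM or more. With the length trend taken out by an offset, 31 of the 40 were lower and 1 was higher, where 31.7% and 35.1% of all genes were, and the median log2 fold change was -0.66. Of the 26 genes called lower 25 were called lower in both fits, and LOS1, the longest, was not. Whether the trend is technical was not tested. A length-corrected value, here and below, is the distance of a gene from the trend for its length. A gene with like levels in both genotypes can therefore be called lower. The trend was fitted to these same fold changes and entered as known, so its own error is not in the adjusted p.

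**Figure D2:**
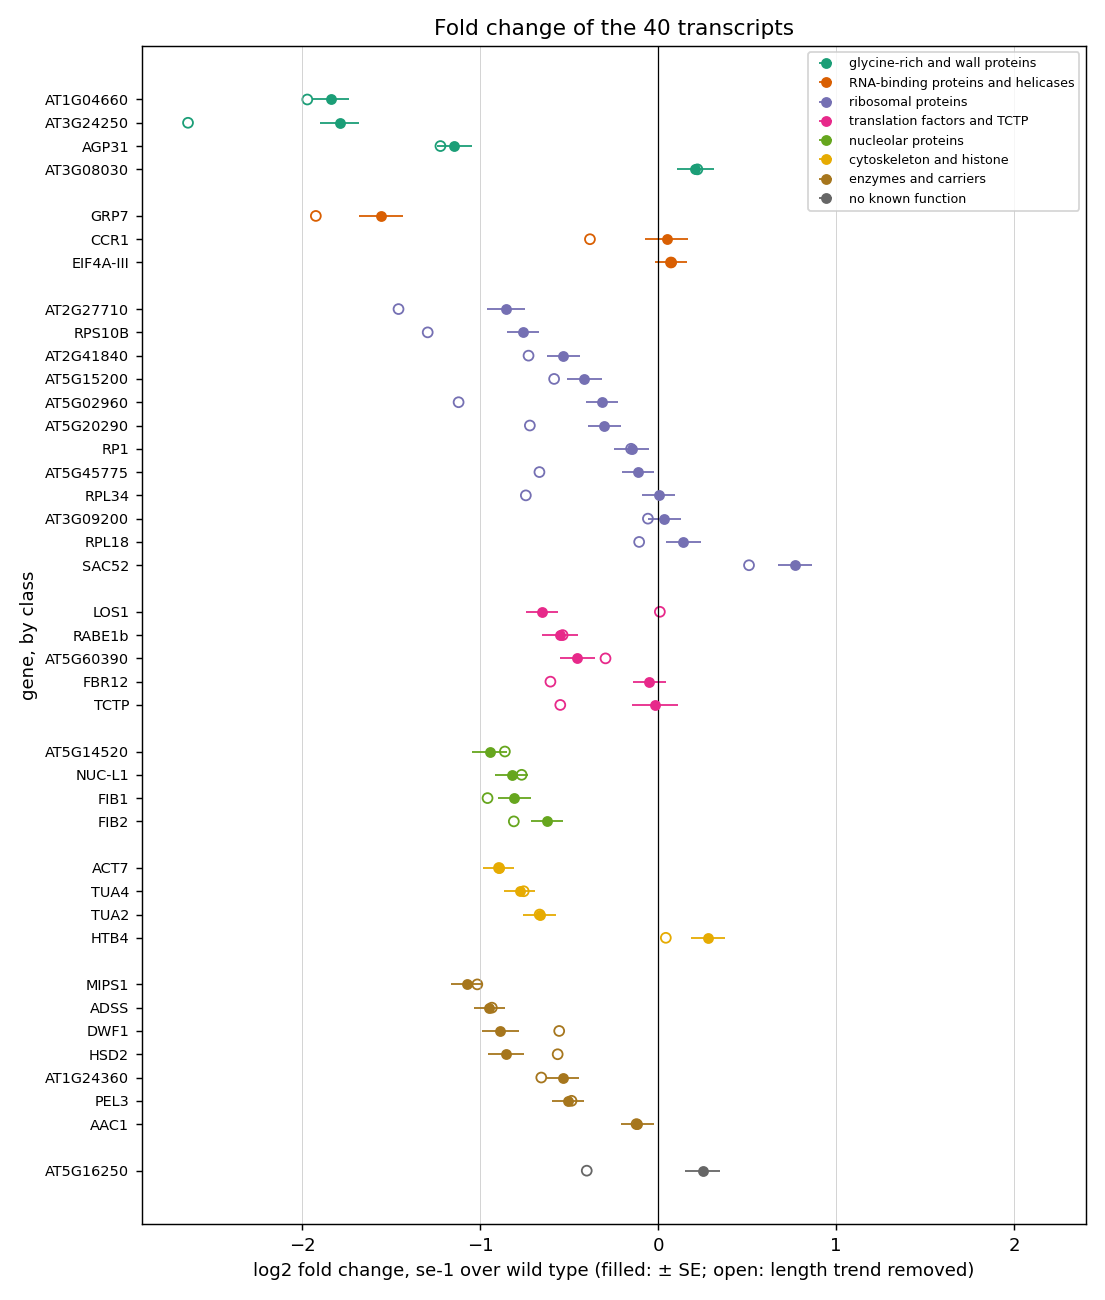
log2 fold change of each gene, se-1 over wild type, with genes grouped by the class of protein they encode. Filled points carry the SE of the fit, and open points are the values with the length trend removed. All 4 nucleolar genes stood below 0 in both, whereas the ribosomal protein genes spread from -0.86 to 0.77.

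Glycine-rich and cell wall proteins held the largest falls. Together these 4 genes took 0.880% of the counts in se-1 and 2.35% in wild type, and 3 of the 4 were called lower. AT3G24250, an intronless gene for a glycine-rich protein (chr3:8786689-8787391), had 3194 and 3365 CPM in se-1, against 10554 and 11973 CPM in wild type. It was the highest of all genes in each wild-type library, and the se-1 libraries did not come near the wild-type values. The fall was 3.46-fold (log2 fold change -1.79 with an SE of 0.11, adjusted p = 6.3e-11), or -2.64 on the log2 scale after length correction. AT1G04660, also intronless and glycine-rich (chr1:1300368-1301773), had 1984 and 1823 CPM in se-1, against 6487 and 7053 CPM in wild type. The fall was 3.58-fold (log2 fold change -1.84, SE 0.10, adjusted p = 2.0e-11), the largest among the 40 genes without an offset, and the corrected value was -1.97. AGP31, an arabinogalactan protein of the cell wall, had 1665 and 1889.8 CPM in se-1, against 3965 and 3847 CPM in wild type, and was 2.21-fold lower (adjusted p = 6.8e-09), with -1.14 on the log2 scale and -1.22 after correction. AT3G08030, a wall protein of the DUF642 family, did not pass the test. Its values were 1669.5 and 2007 CPM in se-1, compared with 1702 and 1465 CPM in wild type, which overlap (log2 fold change 0.21, adjusted p = 0.082). Without se-1 replicate 1 it was called higher (0.35, adjusted p = 0.019), and likewise without wild-type replicate 1 (0.30, adjusted p = 0.028).

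Of the 3 RNA-binding proteins and helicases, 1 was called lower and 2 were not called. GRP7 and CCR1 (also known as GRP8) encode glycine-rich RNA-binding proteins whose transcripts follow the circadian clock and which act on the splicing of each other's transcripts. GRP7 had 2952 and 2958 CPM in se-1, against 7446 and 9824 CPM in wild type. It fell 2.94-fold (log2 fold change -1.56, SE 0.12, adjusted p = 2.1e-09), and the corrected value was -1.92. CCR1 had 1739 and 1688 CPM in se-1 and 1390.4 and 1901 CPM in wild type, so that both se-1 values lay between the wild-type values. Its log2 fold change was 0.05 (SE 0.12, adjusted p = 0.73), and the length-corrected value was -0.38 (adjusted p = 0.0075). Without wild-type replicate 2 it was called higher (0.30, adjusted p = 0.031). Both genes were lower in the first wild-type library than in the second, with coefficients of variation of 19.5% for GRP7 and 22.0% for CCR1 in wild type, where the median over the 40 genes was 3.76%. EIF4A-III, the helicase at the core of the exon junction complex that marks spliced mRNA, had 1558 and 1463 CPM in se-1, compared with 1392 and 1461 CPM in wild type, and did not pass (adjusted p = 0.47). Where 72.3% of all tested genes were called in either direction, the 4 other tested genes of the glycine-rich RNA-binding list were 2 higher and 1 lower. GRP4 of this list had 1410.2 and 1508 CPM in se-1, against 631 and 740 CPM in wild type.

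Ribosomal proteins were the largest class, with 12 genes, and of the classes with more than 1 gene the one that kept most of its share. They took 2.58% of the counts in se-1 and 2.93% in wild type, a ratio of 0.883. In se-1 6 were called lower, 1 was called higher and 5 were not called, and after length correction 8 were lower and 1 higher. AT2G27710 encodes an acidic protein of the ribosomal stalk, the arm that recruits elongation factors. It had 2358 and 2713 CPM in se-1, against 4298 and 4819.5 CPM in wild type, and fell 1.81-fold (log2 fold change -0.86 with an SE of 0.11, adjusted p = 7.9e-07), or -1.46 corrected for length. AT3G09200, the protein at the base of the same stalk, had 2159.6 and 2130.4 CPM in se-1 and 2200.4 and 1964 CPM in wild type, and did not pass (adjusted p = 0.75). RPS10B, of the small subunit, was the other large fall of the class, with 960 and 1013 CPM in se-1, against 1606 and 1713 CPM in wild type (log2 fold change -0.76, SE 0.09), or -1.29 corrected for length.

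SAC52 went the other way. It encodes RPL10 of the large subunit, known from a mutation that restores the growth of a thermospermine-deficient dwarf. It had 4236 and 4434 CPM in se-1, against 2594 and 2464 CPM in wild type. It was the first of all eligible genes in each se-1 library and thirteenth by its mean in wild type. Its log2 fold change was 0.77 (SE 0.095, adjusted p = 8.4e-07), and 0.51 after length correction (adjusted p = 1.0e-04), the single rise among the 40 genes that was called in both fits. Of its 50-base words 4.60% recur in SAG24, a close copy, so that some reads may be shared.

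The remaining ribosomal protein genes had smaller differences without the offset. AT5G15200, annotated as ribosomal protein S4, had 2713 and 2730.3 CPM in se-1, against 3390.4 and 3816 CPM in wild type, and was called lower (log2 fold change -0.42, SE 0.10, adjusted p = 0.0010), at -0.58 after length correction. AT5G20290, an S8 protein, had 2009 and 1999 CPM in se-1, against 2390.1 and 2524 CPM in wild type (log2 fold change -0.30, adjusted p = 0.0065), but missed the threshold without wild-type replicate 2 (adjusted p = 0.067). Its corrected value was -0.72. AT5G02960, an S23 protein, had 1687 and 1769.6 CPM in se-1, against 2189.9 and 2086 CPM in wild type (log2 fold change -0.32, adjusted p = 0.0045), and its corrected value of -1.12 was among the larger falls of the class. AT2G41840, annotated in the S5 family, was also called lower, at 0.696 of its wild-type mean, with -0.53 on the log2 scale and -0.73 after correction. RP1, the large-subunit protein L3, had 3126 and 3353 CPM in se-1, compared with 3496 and 3643 CPM in wild type; the groups do not overlap, but the difference did not pass (adjusted p = 0.17). AT5G45775, RPL18 and RPL34 did not pass either, with adjusted p from 0.20 to 0.98, although RPL18 was called higher without se-1 replicate 2 (0.26, adjusted p = 0.026). Against the trend for their length AT5G45775 and RPL34 were lower, at -0.67 and -0.74. Without the offset they stood at -0.11 and 0.0026.

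The rest of the family is set beside them here, without a test of the difference. Among all tested genes 36.2% were called higher and 36.0% lower in se-1. Of the other 301 tested genes annotated as ribosomal proteins, 206 were called higher and 46 lower in se-1, with a median log2 fold change of 0.66. Products that name an organelle or an organelle-type subunit, or are marked as -like, were left out. Organelle proteins not so named may remain. The complete list, 11 of the 12 genes above included, took 10.7% of the counts in se-1 and 8.36% in wild type. RPS10B is missing from the list because its annotated product does not name the ribosome. After length correction 35.1% of all genes were called higher and 31.7% lower. Of the 312 tested genes of the list 146 were then higher and 102 lower, at a median of 0.15. The highest of the others in wild type were a pair of L4 genes, AT5G02870 and AT3G09630, and both fell, by 0.58 and 0.74 on the log2 scale.

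Of the 5 genes for translation factors and TCTP 3 were called lower and 2 were not called, with shares of 1.02% in se-1 and 1.26% in wild type. After length correction 4 were lower. AT5G60390 encodes eEF1A, which brings aminoacyl-tRNA to the ribosome. It had 2805 and 2531 CPM in se-1, against 3782 and 3483 CPM in wild type (log2 fold change -0.45, SE 0.10, adjusted p = 3.9e-04). Of its words 6.01% recur in transcripts of other loci, and 5.87% in the eEF1A gene AT1G07930. Of the 3 other eEF1A genes tested 1 was called higher and 0 lower, where 36.2% and 36.0% of all tested genes were. AT1G07940 and AT1G07920 did not pass (adjusted p = 0.11 and 0.82). LOS1 encodes eEF2, the factor of ribosome translocation. It stood at 1259 and 1220.0 CPM in se-1, against 1987 and 1887 CPM in wild type (log2 fold change -0.65, adjusted p = 2.7e-06), and its log2 fold change was 0.01 after length correction (adjusted p = 0.93). RABE1b, the elongation factor Tu of plastids, had 1606 and 1317 CPM in se-1, against 2159 and 2098 CPM in wild type (log2 fold change -0.55). Its transcript is covered by an annotated antisense locus, AT4G20362, which has no row of its own, and reads of the 2 cannot be told apart. FBR12 encodes eIF5A and had 1462 and 1364 CPM in se-1, compared with 1536 and 1372 CPM in wild type, which overlap (adjusted p = 0.64). After length correction it was called lower (-0.61, adjusted p = 1.0e-05).

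TCTP, a conserved protein of cell growth, was the most variable between libraries of se-1. It had 2921 and 3987 CPM in se-1, compared with 3139 and 3816 CPM in wild type, and the coefficient of variation was 21.8% in se-1 and 13.8% in wild type. The genotypes overlap, and the test gave a log2 fold change of -0.02 (SE 0.13, adjusted p = 0.90). After length correction it was called lower (-0.55, adjusted p = 0.0010). Over the 40 genes the median coefficient of variation was 4.14% in se-1 and 3.76% in wild type, and it exceeded 10% in 8 genes in se-1 and in 4 in wild type.

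Nucleolar proteins fell together. The 4 genes took 0.520% of the counts in se-1 and 0.905% in wild type, and all 4 were called lower with and without length correction. NUC-L1 encodes nucleolin, which acts in the transcription and processing of ribosomal RNA. It had 2093 and 1953 CPM in se-1, against 3575 and 3541 CPM in wild type, and fell 1.77-fold (log2 fold change -0.82 with an SE of 0.09, adjusted p = 2.8e-07). FIB1 and FIB2 encode fibrillarin, the enzyme that methylates ribosomal RNA under the guidance of small nucleolar RNAs. FIB1 had 1310.2 and 1287 CPM in se-1, against 2327 and 2189.7 CPM in wild type, and was 1.75-fold lower. FIB2 had 924 and 943 CPM in se-1, against 1366 and 1492 CPM in wild type, and was 1.54-fold lower. AT5G14520, a pescadillo-like protein of large-subunit assembly, was 1.93-fold lower (log2 fold change -0.95, SE 0.10). Where 72.3% of all tested genes were called in either direction, the 3 other tested genes of the nucleolar list were 1 higher and 1 lower. Of these AT3G03920, a Gar1 protein of the particles that make pseudouridine, fell by 0.62 on the log2 scale (-1.23 after length correction). NAP57, the enzyme of those particles, did not pass (adjusted p = 0.44), but was called higher after length correction (0.21, adjusted p = 0.047).

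Of the 4 genes for the cytoskeleton and histones, the 3 cytoskeletal genes were called lower, in both fits, and the histone gene higher in one of them. TUA2 and TUA4 encode alpha-tubulin, a subunit of microtubules. TUA2 had 1531 and 1623 CPM in se-1, against 2477 and 2495 CPM in wild type (log2 fold change -0.67, SE 0.09), and TUA4 had 1066 and 1086 CPM in se-1, against 1879 and 1791 CPM in wild type (-0.78, SE 0.09). Words shared with other tubulin genes made up 10.5% of TUA2 and 18.4% of TUA4. Of all 6 alpha-tubulin genes 5 were called lower and 1 higher, where 36.0% and 36.2% of all tested genes were. ACT7, an actin of growing tissue, had 828 and 834 CPM in se-1, against 1584 and 1491 CPM in wild type, and was 1.86-fold lower (log2 fold change -0.90, SE 0.09). Of the 6 actin genes tested 4 were lower and 2 higher, beside the 72.3% of all tested genes called in either direction. HTB4 encodes histone H2B, around which DNA is wound. It had 1732 and 2029 CPM in se-1, against 1541 and 1538 CPM in wild type (log2 fold change 0.28 with an SE of 0.10, adjusted p = 0.015). The value was 0.04 after length correction (adjusted p = 0.71), and it missed the threshold without se-1 replicate 2 (adjusted p = 0.15) and without wild-type replicate 1 (adjusted p = 0.056). Of 46 annotated histone genes tested 35 were higher and 4 lower, with a median log2 fold change of 0.67, or 0.10 after length correction.

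Enzymes and carriers were called lower in 6 of 7 cases, with and without length correction. MIPS1 makes the inositol precursor of phytate and phosphoinositides. It had 1047 and 1028 CPM in se-1, against 2260.5 and 2085 CPM in wild type, and fell 2.11-fold (log2 fold change -1.08 with an SE of 0.09, adjusted p = 4.8e-09). ADSS acts in the synthesis of AMP. It had 744 and 776 CPM in se-1, against 1447 and 1468 CPM in wild type (log2 fold change -0.95, SE 0.09, adjusted p = 1.7e-08), and took rank 137 in se-1, the lowest of the 40 genes. DWF1, a reductase of sterol and brassinosteroid synthesis, had 1691 and 2054 CPM in se-1, against 3351 and 3527 CPM in wild type (log2 fold change -0.89, SE 0.11, adjusted p = 4.9e-07). HSD2, annotated as a hydroxysteroid dehydrogenase, fell by 0.86 on the log2 scale, and after length correction HSD2 and DWF1 each fell by 0.56. AT1G24360, the ketoacyl reductase of plastid fatty acid synthesis, was 1.45-fold lower, and PEL3, an acyltransferase of cutin formation, 1.42-fold lower. AAC1, the carrier that exchanges ADP and ATP across the inner mitochondrial membrane, had 3240.5 and 3056 CPM in se-1, compared with 3437 and 3349 CPM in wild type, and did not pass (adjusted p = 0.27), but was called lower with length and GC corrected together (-0.25, adjusted p = 0.024).

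AT5G16250, an intronless gene annotated as an uncharacterized protein, had 1736 and 1995 CPM in se-1, against 1528 and 1592 CPM in wild type. It was called higher (log2 fold change 0.25, SE 0.10, adjusted p = 0.027), but lower after length correction (-0.40, adjusted p = 0.0011). Without se-1 replicate 2 or without wild-type replicate 1 it missed the threshold, with adjusted p of 0.20 and 0.15, and also with no filter on low counts (adjusted p = 0.051).

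**Figure D3:**
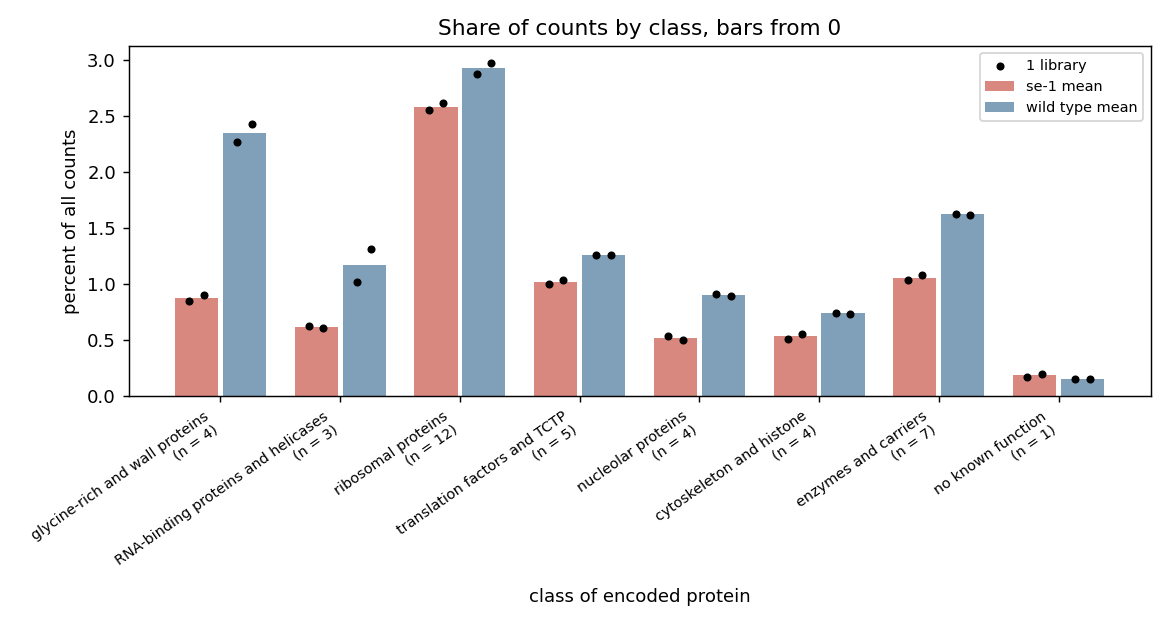
Percent of all counts taken by each class, bars for the mean of 2 libraries (se-1 in red, left, and wild type in blue, right) and points for single libraries; n is the number of genes. The glycine-rich and wall proteins fell to 0.880% in se-1, against 2.35% in wild type, while the ribosomal proteins took 2.58% in se-1 and 2.93% in wild type.

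Of the 40 genes 27 were also among the 40 highest of se-1. Those absent from it, 13 in number, included FIB1 and FIB2, TUA4, ACT7, MIPS1 and ADSS. In their places stood 13 others, among them the ribosomal protein genes EMB2296, AT1G67430, AT5G07090, emb2386, AT3G04920 and AT3G24830. RBCS1A, the small subunit of Rubisco, had 1674 and 2463 CPM in se-1, against 504 and 623 CPM in wild type. OPT3, a transporter known from phloem loading of iron, had 1521 and 1739 CPM in se-1, against 502 and 518 CPM in wild type. The 2 wild-type libraries taken singly shared 38 of 40 genes, and the 2 se-1 libraries 35.

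The order at the top of wild type was stable and lower down it was not. The first 5 genes held the same order in both wild-type libraries, and the values of one did not reach those of the next. From AT5G60390 to AAC1, the sixth to the twelfth, means lay between 3393 and 3633 CPM, and library values overlapped between neighbours. The limit of 40 fell among near-equal levels. The last 3 inside were FBR12, FIB2 and EIF4A-III, at means of 1454, 1429 and 1427 CPM in wild type. The first 3 outside were ATARCA, a ribosome-bound scaffold protein, EIF4A1, the helicase of translation initiation, and RSR4, of vitamin B6 synthesis. ATARCA had 1225 and 1284 CPM in se-1, compared with 1339 and 1431 CPM in wild type, EIF4A1 1198 and 1213 CPM in se-1, compared with 1403 and 1352 CPM in wild type, and RSR4 1084 and 1314 CPM in se-1, compared with 1364 and 1331 CPM in wild type. A chloroplast row, ATCG00740, was left out by the rule, although it exceeded the limit at 735 CPM in se-1, compared with 1495 CPM in wild type.

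Per length, the order changed. On the scale of counts per kilobase, scaled to a common total, AT3G24250 stood at 7003 in se-1 and 26686 in wild type, GRP7 at 3808 in se-1 and 12341 in wild type, and AT2G27710 at 4026 in se-1 and 8036 in wild type. LOS1, the longest, took rank 130 in wild type on that scale, at 491 in se-1 and 852 in wild type. Of the 40 genes 30 remained among the 40 highest per kilobase.

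The size of the fall depended on which libraries ranked the genes. Ranked by wild type, the median log2 fold change was -0.53 in ranks 1 to 40, -0.29 in ranks 41 to 80 and -0.08 in ranks 81 to 160, and it lay between -0.26 and -0.14 in each of the 5 bins from rank 161 to 5120. Ranked by the mean of all 4 libraries, which favours neither genotype, it was -0.36, 0.04 and -0.02. Ranked by se-1 it was 0.04, 0.15 and 0.19.

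**Figure D4:**
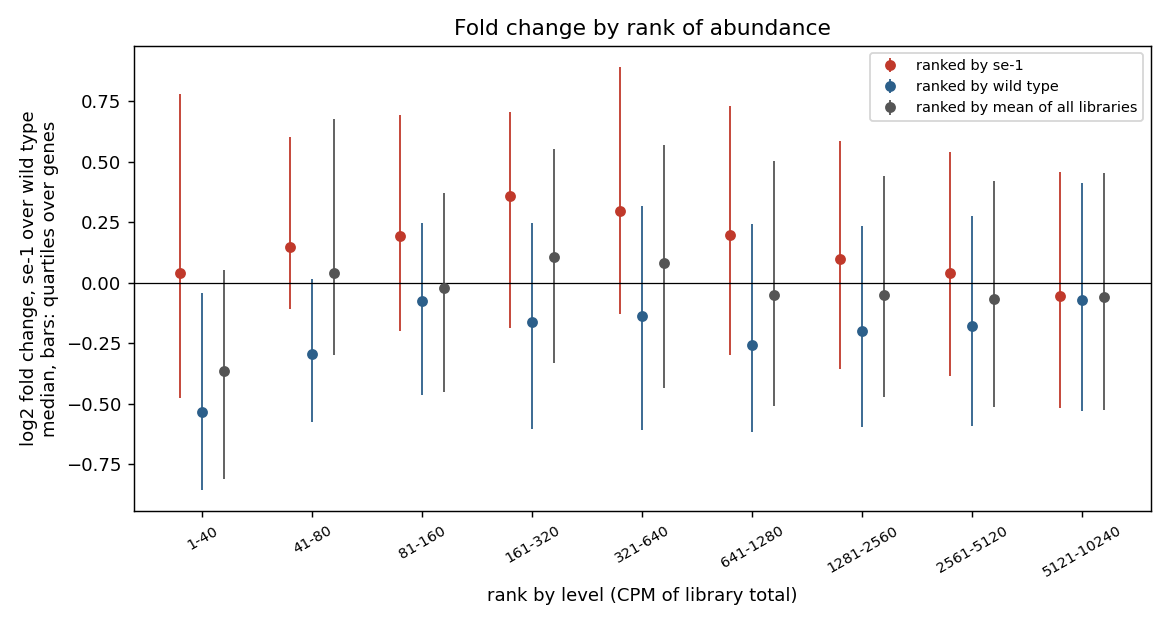
Median log2 fold change, se-1 over wild type, with quartiles over genes, in bins of rank by se-1 (red), by wild type (blue) and by the mean of all libraries (grey). Ranks 1 to 40 stand at -0.53 by wild type, -0.36 by the mean of all and 0.04 by se-1, so that the value depends on the library that ranks the genes.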

How the data were processed

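The authors deposited raw counts per gene for each library, whole numbers without normalization, per the file headers and values. Per the submitters' processing notes the build was TAIR10, and featureCounts, HISAT2 2.0.5, FastQC 0.11.5 and Cufflinks 2.2.1 were used, in an order that is not stated. Per the labels' protocols, RNA was amplified with the MessageAmp aRNA kit, which starts from the poly(A) tail, so RNA integrity can alter long against short transcripts. The annotation release, strand setting and handling of multiply mapped reads are not stated in the labels or files. Of the 40 genes 3 overlap another locus on the same strand and 7 on the opposite strand.

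CPM is the count divided by the library total. After a low-count filter (filterByExpr) and TMM scaling, the 4 libraries entered the two-sided quasi-likelihood test of edgeR 4.0.16 (R 4.3.3) with genotype as the only term, and p-values were adjusted by Benjamini-Hochberg at 0.05. The length offset removes a spline of log2 fold change on transcript length (5 degrees of freedom). Shared words are runs of 50 bases found in other transcripts. Scripts were tested on simulated data. The alternatives were other normalizations, filters and tests (DESeq2 1.42.0, limma 3.58.1), a replicate block, offsets, other choices of genes and each library left out. All 40 genes are named, with every library's values for the 12 highest in wild type, the 6 highest and 6 lowest fold changes among called genes and the 3 on each side of the rank limit. Further values are given where a sentence needs them. Genes outside the 40 come from lists of related families (at most 2 for each), the 40 highest of se-1 and the rank limit. A few others, such as SE, are named where a sentence needs them. Of the genes new in the se-1 list, RBCS1A and OPT3 had the largest ratios of se-1 over wild type (3.67 and 3.19). The genes, classes, lists and tests were chosen with earlier results of these data known. The libraries are separate replicates per the labels. Their counts differed within a genotype by more than sampling noise (chi-square per degree of freedom 5.87 in se-1 and 4.10 in wild type). With 2 libraries per genotype p-values rest on a spread shared across genes.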

Additional observations from a re-analysis of the deposited data

How the results depend on the processing

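Over 14 other fits the count of the 40 genes called lower stayed between 25 and 32, and the count called higher between 1 and 4. It was 1 with the length offset and 1 with the length and GC offset, against 3. Chosen per kilobase 7 were higher and 23 lower. Chosen by the mean of all libraries 7 were higher and 22 lower, and chosen on se-1 16 were higher and 14 lower. The last 2 of these choices and the share without the 3 highest genes were added after the data were seen. The ratio of summed shares, 0.665, was 0.632 for the 40 highest per kilobase and 0.778 without the 3 highest genes. With a library left out, the ratio ran from 0.650 to 0.681, the genes called higher from 2 to 4 and lower from 25 to 26, and the overlap with the se-1 list from 26 to 28. The cause of these moves was not tested.

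Signs turned for 8 genes, 6 of them with the length offset. With the length offset AT1G56070 (LOS1) stood at 0.0093. With the length offset and with the length and GC offset, AT3G09200 stood at -0.058 and -0.21, AT4G39260 (CCR1) at -0.38 and -0.56, AT3G05590 (RPL18) at -0.11 and -0.083, AT5G16250 at -0.40 and -0.42 and AT1G69620 (RPL34) at -0.74 and -0.70. With a library left out, AT3G16640 (TCTP) ran from -0.26 to 0.20, AT3G09200 from -0.037 to 0.10, AT4G39260 from -0.18 to 0.30, AT1G69620 from -0.075 to 0.087 and AT1G26630 (FBR12) from -0.12 to 0.017. With all 4 libraries and no offset, LOS1 and AT5G16250 were called among these 8. CCR1 (0.30) without wild-type replicate 2 and RPL18 (0.26) without se-1 replicate 2 were called higher.

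No label gives same-numbered libraries a shared origin, and the deviations of same-numbered libraries correlated at 0.0263. With the replicate block 26 genes were lower and 4 higher, the fourth being AT3G08030 (0.20, adjusted p = 0.049), and over all genes 6840 were lower and 6843 higher. Depth does not limit these genes, but 2 libraries per genotype do.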
